A study of Mus musculus with 6 samples.

Results

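Chemokines and their receptors were examined in the brains of mice after a systemic injection of bacterial lipopolysaccharide (LPS). The genes were all those whose symbol in the array annotation belongs to the chemokine ligand families (Ccl, Cxcl, Cx3cl, Xcl) or to their receptor families (Ccr, Cxcr, Cx3cr, Xcr and the atypical receptors Ackr), which gave 55 of the 19938 genes that the annotation names alone. Of these, 34 were ligands and 21 were receptors. Brains of 3 LPS-treated mice were compared with brains of 3 vehicle-treated controls on Affymetrix Mouse Gene 1.0 ST arrays, each mouse on an array of its own. All were male C57BL/6 mice of 7 to 8 weeks. LPS of Escherichia coli serotype 055:B5 was given once into the peritoneum at 4 mg/kg, controls received PBS by the same route, and the perfused whole brain was taken 48 hours later. Values are log2 expression after the authors' robust multichip averaging (RMA), for transcript clusters, which are sets of probes against a transcribed locus. Where several clusters named a gene, the one with the highest mean over the 6 arrays was used.

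Chemokines are small secreted proteins that steer leucocytes along gradients held on vessel walls and matrix, and they act through receptors that couple to inhibitory G proteins. Inflammatory chemokines are induced by cytokines, interferons and microbial products, whereas homeostatic ones are made constantly and place cells within tissues. In the brain, endothelium, astrocytes and microglia can make inflammatory chemokines, neurons carry the membrane-bound chemokine CX3CL1, and microglia carry its receptor. Atypical receptors bind chemokines without G protein signalling and scavenge, transport or present them.

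Over all clusters, the first principal component (54.5% of the variance) separated LPS replicates 1 and 2 from the remaining 4 arrays. The array medians of this pair were 7.09 and 7.11, whereas LPS replicate 3 had 6.96 and the controls had 6.95 to 6.98. Markers of neurons, astrocytes, oligodendrocytes and choroid plexus were above background on all 6 arrays. Of 5 endothelial markers, all 5 were higher after LPS, with a median log2 fold change of 1.04 and a mean level of 8.52 to 8.65 on LPS arrays, against 7.51 to 7.58 on control arrays. Cldn5, Cdh5, Tek and Vwf among them are also in the authors' own list of genes changed on these arrays. None of 5 microglial markers passed the test (7.48 to 7.87 on LPS arrays, 7.54 to 7.66 on control arrays). Nor did any of 4 astrocyte, 3 pericyte and 3 perivascular macrophage markers, with median log2 fold changes of 0.11, 0.38 and -0.14. For 2, 2 and 1 of these, in that order, all LPS arrays lay above all controls. In whole brain RNA, more cells of a type and more RNA per cell cannot be told apart, and the part of cell numbers in the results that follow was not tested. The transcripts of Tbp, a reference gene, averaged 10.45 ± 0.17 in LPS-treated mice and 10.46 ± 0.09 in vehicle-treated controls (SD, n = 3 each).

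Sequences before a start of 3 ligands are shown because they hold, or lack, the binding motif of interferon-activated factors. The first belongs to Cxcl10, the chemokine with the largest difference between the groups among all 55, the second to Cxcl9, its neighbour on chromosome 5, and the third to Cxcl14, the chemokine with the largest negative difference. Each is the 250 bases before a start in the RefSeq table on GRCm38.p6, read 5′ to 3′ along the gene. For Cxcl10 and Cxcl9 this is the outer end of the annotated gene, whereas the start used for Cxcl14 lies 260 bases inside the annotated gene, so that its window falls within the gene's span. All 3 genes lie on the minus strand, and the windows are chr5:92348890-92349139 for Cxcl10, chr5:92328080-92328329 for Cxcl9 and chr13:56296552-56296801 for Cxcl14. Capitals mark every match on either strand to 1 of 3 motifs.
Cxcl10: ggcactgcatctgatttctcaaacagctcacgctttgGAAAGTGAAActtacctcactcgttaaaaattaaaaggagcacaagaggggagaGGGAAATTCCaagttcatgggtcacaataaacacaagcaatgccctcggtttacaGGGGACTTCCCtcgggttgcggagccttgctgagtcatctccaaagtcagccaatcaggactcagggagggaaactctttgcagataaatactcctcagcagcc
Cxcl9: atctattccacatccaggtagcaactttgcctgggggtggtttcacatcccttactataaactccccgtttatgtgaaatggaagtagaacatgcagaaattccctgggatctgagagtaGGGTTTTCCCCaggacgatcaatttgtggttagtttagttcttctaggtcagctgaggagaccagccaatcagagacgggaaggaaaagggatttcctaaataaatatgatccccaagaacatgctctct
Cxcl14: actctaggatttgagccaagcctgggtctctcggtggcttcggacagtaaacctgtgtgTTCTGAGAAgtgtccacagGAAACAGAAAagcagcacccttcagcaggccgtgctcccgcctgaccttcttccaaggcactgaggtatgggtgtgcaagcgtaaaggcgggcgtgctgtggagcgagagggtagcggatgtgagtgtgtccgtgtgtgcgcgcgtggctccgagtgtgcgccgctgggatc

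The motifs searched were the interferon-stimulated response element (ISRE) as GAAA, any pair of bases and GAAA, the NF-kappa-B site as GGG, any 5 bases and CC, and the gamma-activated sequence as TTC, any 3 bases and GAA. In Cxcl10 the ISRE letters stood 213 to 204 bases before the start, and the NF-kappa-B letters stood at 159 to 150 and, as overlapping matches, at 104 to 94. Cxcl9 held no ISRE match in this window and had overlapping NF-kappa-B matches at 130 to 120. Cxcl14 held an ISRE match at 172 to 163 and a gamma-activated sequence at 191 to 183, counted from its inner start. Among members with a sequence in the table, 41 of 55, of which 8 have a start inside the gene's span, the ISRE letters were found in 3 (Ccl19, Cxcl10 and Cxcl14), or 7.32%, against 3.46% of 27025 genes with a window of the same length. The NF-kappa-B letters were found in 58.5% of these members and 48.7% of all genes, and the gamma-activated sequence in 7.32% and 8.13%. A match is a description of the letters and was not tested as a site.

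Many members shared a chromosome, though not always a neighbourhood on it. Those on chromosome 1, for example, were spread from base 74153994 to base 173333503. On GRCm38.p6, 14 members lay on chromosome 11, 12 on chromosome 9, 11 on chromosome 5 and 7 on chromosome 1, with the other 11 on 7 chromosomes. Cxcl9, Cxcl10 and Cxcl11 lay within 41966 bases, at chr5:92321331-92363296. All members on chromosome 9 were receptors, and these included Cx3cr1 and Ccr2.

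To judge which of the 55 genes could be read in whole brain at all, their levels were set against those of 1196 olfactory and vomeronasal receptor genes, for which brain tissue as a whole has almost no transcripts. The 95th percentile of those genes was 6.46 to 6.64 on LPS arrays and 6.50 to 6.54 on control arrays. By this measure 14 members, 9 ligands and 5 receptors, were above background on all 6 arrays, which is 25.5% of the members and compares with 57.9% of all named genes. The ligands were Ccl5, Ccl6, Ccl9, Ccl19, Ccl25, Ccl28, Cx3cl1, Cxcl12 and Cxcl14, and the receptors were Ackr1, Ackr2, Ccr7, Cx3cr1 and Cxcr4. A further 5 ligands (Cxcl10, Cxcl16, Cxcl13, Ccl7 and Ccl3) were above background on all 3 LPS arrays but not on all control arrays, and 3 (Ccl17, Ccl11 and Cxcl3) on all 3 control arrays but not on all LPS arrays. Ccl4 and Ccl20 passed on arrays of both groups, but on all 3 of neither. The other 31 members, 15 ligands and 16 receptors, were above it on no array, and 11 of these lay below the background median on all 6. For them a small difference carries little information.

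**Figure D1:**
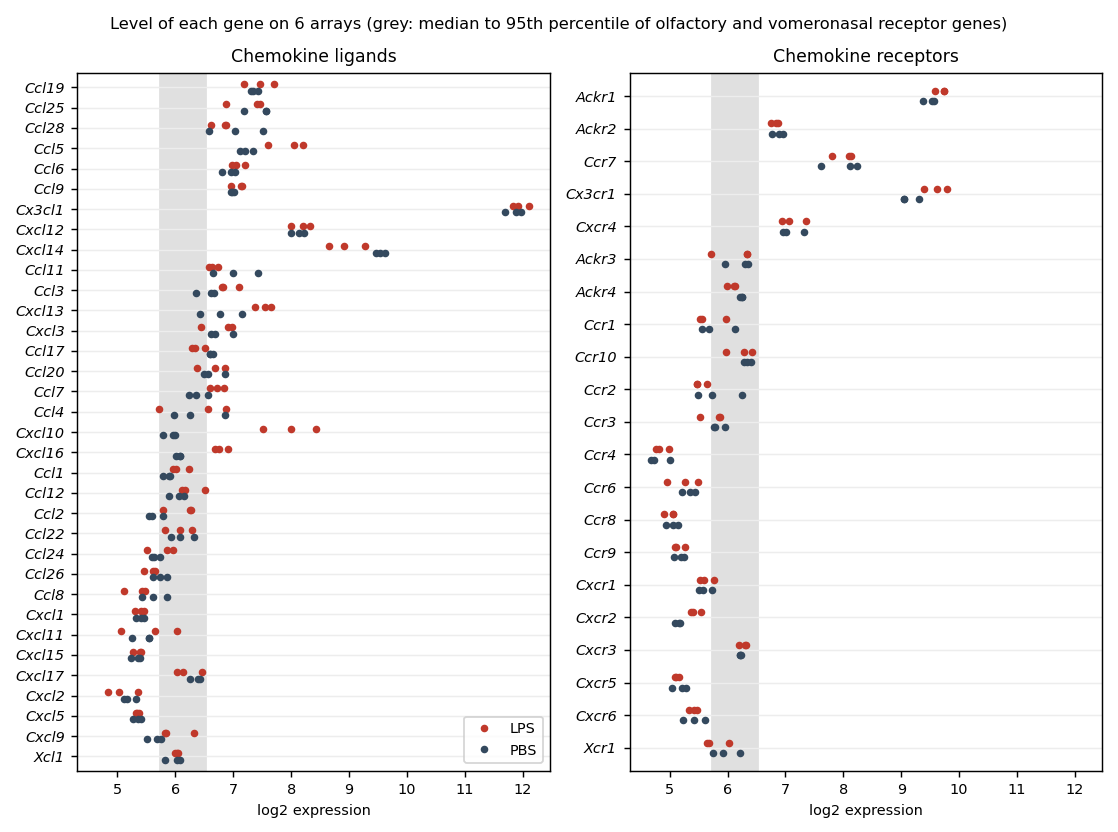
Log2 expression (horizontal axis) of 34 ligands and 21 receptors on each of 3 LPS arrays (red, upper points of each row) and 3 PBS arrays (blue, lower points), with rows ordered by the number of arrays above background and then by name. The grey band runs from the median to the 95th percentile of 1196 olfactory and vomeronasal receptor genes, each averaged over the arrays, and the 14 members above that percentile of every single array head the rows, while levels of different genes rest on different probes and are not comparable with each other.

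The comparison of LPS-treated mice with vehicle-treated controls asked which chemokine genes were altered in the brain 48 hours after the challenge. Of 55 members, 2 were upregulated, both of them ligands (Cxcl10 and Cxcl16), and none was downregulated at an adjusted p under 0.05 in limma, fitted over 35556 clusters. That is 3.64% of the members, beside 0.652% of all clusters that were higher and 0.0619% that were lower. Among all named genes, taken by the same brightest-cluster rule, 0.848% were higher. None of the 21 receptors passed. By the methods' t-test, which estimates the spread of each gene from its own 6 values, none of the 55 passed after adjustment, beside 4 clusters higher (0.0112%) and 1 lower (0.00281%) of all, and 7 were higher and 3 lower at an unadjusted p under 0.05, beside 5.91% and 5.95% of all clusters.

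At an unadjusted p under 0.05 in limma, 9 members were higher and 2 were lower, which is 16.4% and 3.64% of the 55, beside 7.69% and 6.58% of all clusters. Over all named genes these shares were 6.24% and 7.24%. The 9 were 7 ligands and 2 receptors, and both lower genes were ligands. Counted without a test, 12 members had all 3 LPS arrays above all 3 control arrays, or 21.8% beside 9.73% of all clusters. For 3 members all LPS arrays lay below all control arrays, or 5.45% beside 10.3%. The median log2 fold change was 0.05 over the ligands and -0.04 over the receptors, against -0.000925 over all clusters. For a single gene, 3 against 3 mice allow no exact two-sided permutation p below 0.1.

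**Figure D2:**
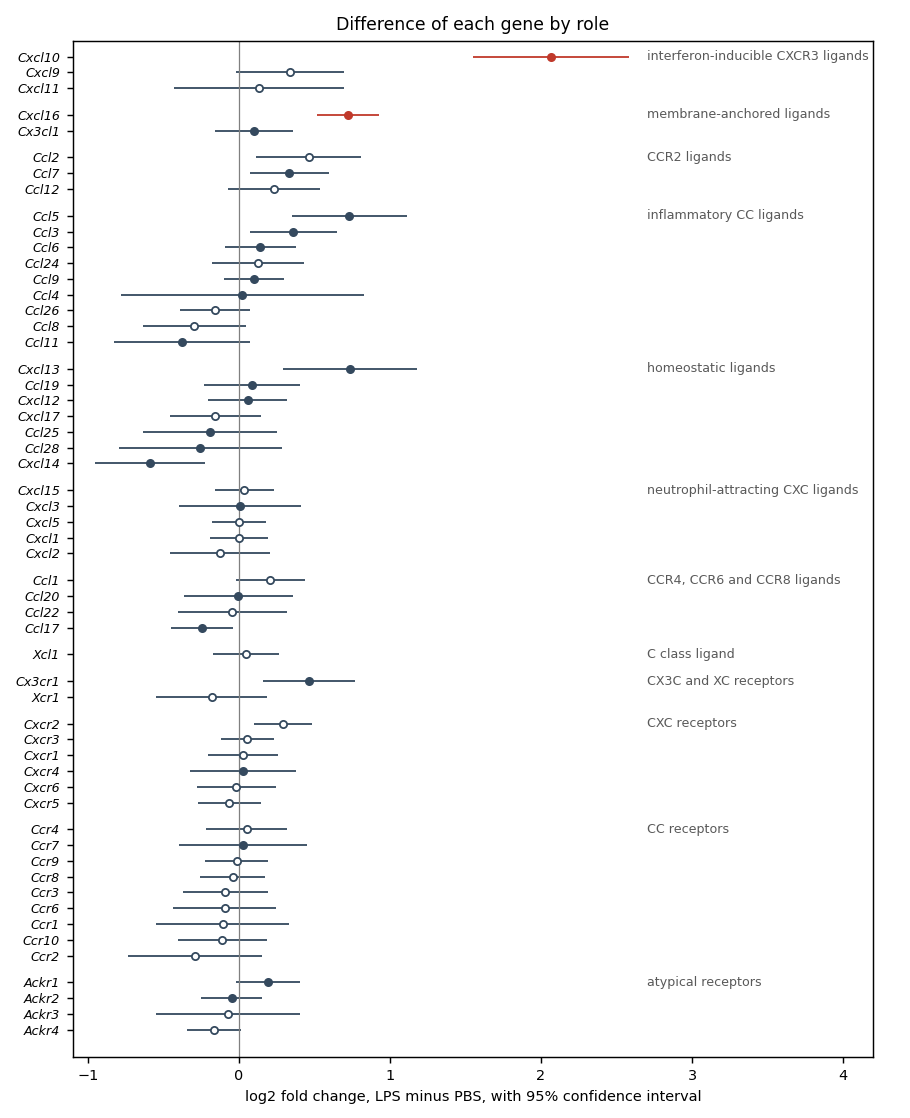
Log2 fold change of each of the 55 genes, LPS minus PBS, with its 95% confidence interval from limma (n = 3 each), grouped by role. Cxcl10 and Cxcl16 in red are the genes with an adjusted p under 0.05, and open points mark genes above background on no array.

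Among the interferon-inducible ligands of CXCR3, a receptor of activated T and NK cells, 1 of 3 was upregulated. Cxcl10 (chr5:92346638-92348889) had log2 expression of 8.00, 7.51 and 8.43 in LPS-treated mice, against 5.95, 6.00 and 5.79 in vehicle-treated controls. Every LPS array was above every control array by more than a whole log2 unit, and the LPS arrays also differed more among themselves, with replicate 3 highest and replicate 2 lowest. The difference was 4.19-fold (95% confidence interval 2.92 to 5.99), a log2 fold change of 2.07 (limma adjusted p = 0.0120). In controls it lay within the background band, between the median and the 95th percentile of the 1196 background genes, so that the fold change is measured against a level that could not be told from background. LPS replicate 3 alone, set against the 3 controls, had a log2 fold change of 2.51 (limma adjusted p = 0.0264, assuming that the lone array varies like the controls).

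Cxcl9, which lies next to it and binds the same receptor, had values of 5.84, 5.82 and 6.32 after LPS, against 5.52, 5.69 and 5.76 in controls. LPS replicate 3 was again the highest, the groups did not overlap, and all 6 values were in or below the background band, with a log2 fold change of 0.34 (limma adjusted p = 0.369). Cxcl11, the third ligand of the group, had 5.64, 6.03 and 5.06 after LPS and 5.54, 5.54 and 5.25 in controls. Here LPS replicate 3 was the lowest of all arrays and the groups overlapped. Its log2 fold change was 0.13 (-0.43 to 0.70; limma adjusted p = 0.826).

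The receptor itself, Cxcr3, gave 6.32, 6.29 and 6.20 after LPS, against 6.22, 6.21 and 6.21 in controls. The 6 arrays lay within the background band and the groups overlapped (log2 fold change 0.06, limma adjusted p = 0.747). Of 7 markers of T and NK cells none passed the test, and 6 of them, Cd3d, Cd3e, Cd3g, Cd8a, Ncr1 and Gzma, were above background on no array. Gzma and Cd3e had all LPS arrays above all controls, with log2 fold changes of 0.57 and 0.26 (limma adjusted p = 0.0768 and 0.296). The groups overlapped for Cd3d, Cd3g, Cd4, Cd8a and Ncr1, with -0.13 to 0.07. The mean level of the 7 was 5.77 to 5.80 on LPS arrays and 5.64 to 5.76 on control arrays.

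The membrane-anchored chemokines have a chemokine head on a mucin stalk and can be shed from the cell. Cxcl16 (chr11:70454389-70459984), the ligand of CXCR6, had log2 expression of 6.68, 6.76 and 6.91 in LPS-treated mice, against 6.08, 6.01 and 6.08 in vehicle-treated controls. The groups were well apart and the control arrays were close together. Cxcl16 was 1.65-fold higher after LPS (95% confidence interval 1.43 to 1.90), a log2 fold change of 0.72 (limma adjusted p = 0.0195). All 3 LPS arrays were just above background and no control array was. Its receptor Cxcr6 was above background on no array (log2 fold change -0.02, limma adjusted p = 0.961).

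Cx3cl1, the chemokine of neurons, had 11.91, 12.10 and 11.83 after LPS and 11.89, 11.97 and 11.70 in controls. It was far above background on every array, and the groups overlapped. The log2 fold change was 0.10 with an interval of -0.16 to 0.36 (limma adjusted p = 0.704). Cx3cr1, its receptor on microglia, had 9.39, 9.79 and 9.61 after LPS, against 9.30, 9.05 and 9.05 in controls. All LPS arrays were above all control arrays, by a small margin between LPS replicate 1 and control replicate 1, and the log2 fold change of 0.47 did not pass (limma adjusted p = 0.216). Of the 5 microglial markers, Csf1r also had separate groups, with a log2 fold change of 0.30, while Tmem119, P2ry12, Aif1 and Sall1 had 0.11, 0.01, 0.09 and -0.21 with overlapping groups (limma adjusted p = 0.287 for Csf1r and 0.572 to 0.988 for the other 4). Aif1 was above background on no array.

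The calls of Cxcl10 and Cxcl16 were not kept in every fit with 1 array left out. Cxcl10 no longer passed without LPS replicate 1 or without control replicate 1, 2 or 3 (limma adjusted p = 0.0636 to 0.0832), and Cxcl16 lost its call without each array in turn except LPS replicate 3 (adjusted p = 0.0592 to 0.118). Calls over all clusters also fell without any 1 array other than LPS replicate 3, from 0.652% higher to between 0.208% and 0.321%. The log2 fold change stayed between 1.84 and 2.30 for Cxcl10 and between 0.66 and 0.78 for Cxcl16. Both genes were higher after LPS, as were the 5 endothelial markers, with a median log2 fold change of 1.04. Most of these markers are known from the authors' list of changed genes, so that their difference is no independent result. The part of endothelial RNA in either result was not tested.

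The 3 ligands of CCR2, the receptor that brings monocytes out of the blood, had a median log2 fold change of 0.34 and none passed. Ccl2, the main monocyte attractant, had 6.25, 6.27 and 5.79 after LPS, against 5.60, 5.78 and 5.54 in controls. LPS replicates 1 and 2 were above the controls, whereas LPS replicate 3 was level with the highest control. Its log2 fold change was 0.46 (0.11 to 0.81; limma adjusted p = 0.266), and it passed without LPS replicate 3, with 0.62 (limma adjusted p = 0.0166). Without that array calls rose in general, to 7.42% of all clusters higher and 3.24% lower, and the 4 members then higher (Ccl2, Ccl5, Cxcl10 and Cxcl16) and the 1 lower (Cxcl14) are to be read beside these shares. Ccl2 was above background on no array.

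Ccl7 had 6.60, 6.72 and 6.84 after LPS and 6.24, 6.35 and 6.56 in controls. The lowest LPS array was just above the highest control, with a log2 fold change of 0.34 (limma adjusted p = 0.272). Ccl12, a CCR2 ligand of mice, had a log2 fold change of 0.23 (limma adjusted p = 0.441) and was above background on no array. Ccr2 gave 5.64, 5.47 and 5.48 after LPS, against 5.49, 6.24 and 5.73 in controls. Control replicate 2 was the highest, the groups overlapped, and no array was above background (log2 fold change -0.29, limma adjusted p = 0.509). None of 4 blood monocyte markers, of which Ccr2 is itself 1, passed the test. F13a1 had all LPS arrays above all controls, with a log2 fold change of 0.43 (limma adjusted p = 0.146). The groups overlapped for Plac8 and Vcan, with 0.18 and -0.04 (limma adjusted p = 0.436 and 0.869). Of the 4, only Vcan was above background on all 6 arrays. The mean level of the 4, which moved in both directions, was 6.72 to 6.76 on LPS arrays and 6.56 to 6.83 on control arrays.

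Of the 9 inflammatory CC ligands, which attract monocytes, T cells and eosinophils, none passed, and the log2 fold changes ran from -0.38 to 0.73. At an unadjusted p under 0.05 in limma 2 were higher, or 22.2% beside 7.69% of all clusters. Ccl5, a product of T cells, NK cells and activated glia, had 7.61, 8.04 and 8.20 in LPS-treated mice, against 7.34, 7.11 and 7.20 in vehicle-treated controls. The LPS arrays were all above the controls, LPS replicate 1 least so. The log2 fold change was 0.73 (0.35 to 1.11; limma adjusted p = 0.136). Without LPS replicate 3, where 7.42% of all clusters were called higher, Ccl5 passed with a log2 fold change of 0.61 (limma adjusted p = 0.0488).

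Ccl3, made by macrophages and microglia, had 6.81, 6.82 and 7.10 after LPS and 6.61, 6.66 and 6.36 in controls. The groups did not overlap, and the log2 fold change was 0.36 (limma adjusted p = 0.277). Ccl4, its close relative, varied widely within each group, between 5.72 and 6.87 after LPS and between 5.98 and 6.86 in controls (log2 fold change 0.02, interval -0.78 to 0.83, limma adjusted p = 0.983). Such an interval leaves room for a difference in either direction.

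Ccl6 and Ccl9, rodent chemokines that act through CCR1, were above background throughout. Ccl6 had 7.04, 6.98 and 7.20 after LPS and 7.03, 6.95 and 6.80 in controls. Ccl9 had 7.16, 7.14 and 6.96 after LPS and 6.98, 7.02 and 6.97 in controls. The groups overlapped for both, with log2 fold changes of 0.14 and 0.10 (limma adjusted p = 0.539 and 0.617). The remaining 4 were Ccl11, with -0.38, an eosinophil attractant above background on all control arrays, and Ccl8, Ccl24 and Ccl26, with -0.30, 0.13 and -0.15 and above background on no array (limma adjusted p = 0.399 to 0.676 over the 4).

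The homeostatic ligands were the group best seen in brain, with 5 of 7 above background on all 6 arrays. None passed, and their log2 fold changes ran from -0.59 to 0.74. Cxcl14, a chemokine made without stimulation in many tissues, had 8.92, 8.66 and 9.27 in LPS-treated mice, against 9.46, 9.53 and 9.62 in vehicle-treated controls. All LPS arrays were below all controls, LPS replicate 3 nearest to them and replicate 2 farthest. The log2 fold change was -0.59 (-0.95 to -0.22; limma adjusted p = 0.199). It passed without LPS replicate 3, where 3.24% of all clusters were called lower, with -0.75 (limma adjusted p = 0.0128), and it was -0.27 without LPS replicates 1 and 2.

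Cxcl13, which draws B cells through CXCR5, had 7.54, 7.37 and 7.64 after LPS and 7.16, 6.42 and 6.77 in controls. The LPS arrays were close together and above all controls, which were spread over most of a log2 unit. Its log2 fold change was 0.74 (0.29 to 1.18; limma adjusted p = 0.187). Of 3 B cell markers none passed and none was above background on any array (5.33 to 5.61 on LPS arrays, 5.35 to 5.55 on control arrays), and Cxcr5 was above background on no array, with a log2 fold change of -0.06 (limma adjusted p = 0.773).

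Cxcl12, which retains and places cells through CXCR4, had 8.00, 8.20 and 8.32 after LPS and 8.13, 7.99 and 8.22 in controls. Cxcr4 had 6.94, 7.06 and 7.36 after LPS and 7.00, 7.32 and 6.95 in controls. In both genes the groups overlapped, with log2 fold changes of 0.06 (-0.20 to 0.32) and 0.03 (-0.32 to 0.38) and limma adjusted p values of 0.839 and 0.953. Ackr3, the scavenger of CXCL12, was above background on no array (log2 fold change -0.07, limma adjusted p = 0.895).

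Ccl19, which guides dendritic cells and T cells to lymph nodes, had 7.70, 7.18 and 7.46 after LPS and 7.31, 7.42 and 7.34 in controls. Its receptor Ccr7 had 8.13, 8.09 and 7.81 after LPS and 8.11, 8.23 and 7.61 in controls. Neither pair of groups was apart, and the log2 fold changes were 0.09 and 0.03 (limma adjusted p = 0.796 and 0.961). The 4 dimmer clusters of Ccl19, of which 2 had identical values, had 0.11 to 0.17 and did not pass either (limma adjusted p = 0.587 to 0.603).

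Ccl25, the thymic ligand of CCR9, had 7.42, 6.88 and 7.45 after LPS and 7.57, 7.57 and 7.18 in controls. LPS replicate 2 was the lowest array, and the groups overlapped (log2 fold change -0.19, limma adjusted p = 0.668). Its dimmer cluster had a log2 fold change of 0.14, so that the 2 clusters of this gene differed in sign. Ccl28, a mucosal ligand of CCR10, had 6.88, 6.85 and 6.61 after LPS and 7.02, 7.51 and 6.57 in controls. The controls spanned most of a log2 unit and enclosed the LPS arrays (log2 fold change -0.26, limma adjusted p = 0.636). Cxcl17 was above background on no array, with -0.15 (limma adjusted p = 0.601). The lymph node chemokines of the Ccl21 group and the skin chemokines of the Ccl27 group share clusters among their near-identical copies. These 7 shared clusters, some of which repeat each other's values, had log2 fold changes of -0.18 to 0.12. None passed (limma adjusted p = 0.358 to 0.748).

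The 5 ligands that attract neutrophils through CXCR2 or, for Cxcl15, in mouse lung, showed no difference that passed, and their log2 fold changes ran from -0.13 to 0.04. Cxcl1, an early product of endothelium and astrocytes in other inflammatory settings, had 5.40, 5.46 and 5.31 after LPS and 5.41, 5.31 and 5.45 in controls. All 6 values were below the background median of their array and the groups overlapped (log2 fold change 0.00, interval -0.19 to 0.19, limma adjusted p = 0.999). Cxcl2, Cxcl5 and Cxcl15 were likewise below the background median throughout, and Cxcl3 was above background on all control arrays and on LPS replicates 2 and 3, with a log2 fold change of 0.01 (limma adjusted p = 0.991).

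Cxcr2, the main neutrophil chemokine receptor, had 5.54, 5.37 and 5.40 after LPS, against 5.17, 5.09 and 5.19 in controls. The groups did not overlap, yet all 6 values were below the background medians, and the log2 fold change of 0.29 did not pass (limma adjusted p = 0.219). Of 6 neutrophil markers only Csf3r, the receptor gene for the growth factor G-CSF, was higher, with a log2 fold change of 0.73 (limma adjusted p = 0.0188). The other 5, S100a8, S100a9, Ngp, Camp and Ltf, were above background on no array.

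Among the 4 ligands of CCR4, CCR6 and CCR8, receptors of T cell subsets and dendritic cells, none passed. Ccl17 had 6.33, 6.28 and 6.51 after LPS, against 6.66, 6.60 and 6.60 in controls. All LPS arrays were below all controls, which were nearly equal (log2 fold change -0.24, interval -0.45 to -0.04, limma adjusted p = 0.292). Ccl1, a ligand of CCR8, had separate groups with 0.21 and was above background on no array (limma adjusted p = 0.381). Ccl20 and Ccl22 had -0.00241 and -0.04, and Xcl1, the only member of the C class, had 0.05 (limma adjusted p = 0.997, 0.923 and 0.840).

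Of the 21 receptors none passed. At an unadjusted p under 0.05 in limma 2, Cx3cr1 and Cxcr2, were higher, or 9.52% beside 7.69% of all clusters. Of 9 CC receptors, 8 were above background on no array, with Ccr7 the exception, and their log2 fold changes ran from -0.29 to 0.05. The 6 CXC receptors ran from -0.06 to 0.29, and Cxcr4 was the only one of them above background. Xcr1, the receptor for Xcl1 on cross-presenting dendritic cells, had -0.18 and was above background on no array (limma adjusted p = 0.623).

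The atypical receptors comprised 4 genes. Ackr1, which carries chemokines across venular endothelium and is also borne by red blood cells, had 9.74, 9.58 and 9.74 after LPS, against 9.57, 9.53 and 9.38 in controls. The lowest LPS array was just above the highest control (log2 fold change 0.19, interval -0.02 to 0.41, limma adjusted p = 0.384). Of 3 listed red cell markers only Alas2 was named alone, so that 1 gene stands for these cells. Alas2 was above background on no array, with a log2 fold change of -0.25 (limma adjusted p = 0.249), and the endothelial markers were higher as given above. The part of red cells or endothelium in the values of Ackr1 was not tested. Ackr2, a scavenger of inflammatory CC chemokines, had 6.88, 6.84 and 6.76 after LPS and 6.89, 6.97 and 6.77 in controls. These groups overlapped (log2 fold change -0.05, limma adjusted p = 0.828). Ackr4, the scavenger of CCL19, CCL21 and CCL25, had lower values on all LPS arrays than on any control array, by a log2 fold change of -0.16 (limma adjusted p = 0.379), and was above background on no array.

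**Figure D3:**
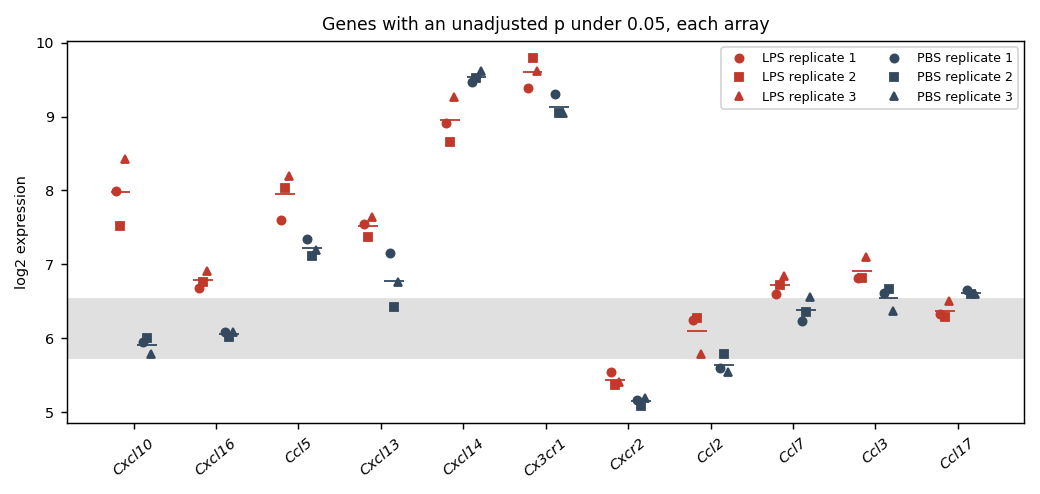
Log2 expression on each array of the 11 members with an unadjusted p under 0.05 in limma, for LPS (red, left of each pair) and PBS (blue), with a symbol for each replicate number, a line at each group mean and the background band in grey. Cxcl10 has the widest gap between the groups, Cxcr2 lies below the band on all 6 arrays, and Cxcl14 and Ccl17 are the genes with LPS arrays below the controls.

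Other genes of the chemokine system were read from a list of receptor signalling genes, of enzymes and proteoglycans that process or present chemokines, and of platelet chemokines and chemerin with their receptors. Of 54 listed genes 50 were named alone, and none passed in either direction in limma or by the methods' t-test. At an unadjusted p under 0.05, 7 were higher and 2 lower in limma, beside 7.69% and 6.58% of all clusters, and 6 and 1 by the methods' t-test, beside 5.91% and 5.95%. All LPS arrays were above all controls for 10 of the 50 and below them for 2, beside 9.73% and 10.3% of all clusters. The median log2 fold change of the 50 was 0.03.

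The 9 genes with an unadjusted p under 0.05 are named here after their values were seen. Rac2, which drives the migration of blood cells, had 7.41, 7.46 and 7.76 after LPS, against 6.47, 6.89 and 6.58 in controls. Dock2, the exchange factor that activates Rac in leucocytes, had 7.18, 7.34 and 7.57 after LPS and 6.79, 6.78 and 6.47 in controls. In both genes the groups were apart, with log2 fold changes of 0.90 (0.56 to 1.24) and 0.68 (0.36 to 1.00) and limma adjusted p values of 0.0560 and 0.116. Both passed without LPS replicate 3, along with 7.42% of all clusters.

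The signalling genes Plcb2, Vav1 and Pik3r5 had log2 fold changes of 0.53, 0.44 and 0.34, and Rarres2, which encodes the chemoattractant chemerin, had 0.46 (limma adjusted p = 0.173 to 0.343 over the 4). Plcb2 and Vav1 were above background on no array. Adam17, a protease that sheds membrane proteins including CX3CL1, had 0.32 (limma adjusted p = 0.268). Both lower genes were Rgs14, a regulator of G protein signalling, with -0.35, and Sdc4, a heparan sulphate proteoglycan, with -0.28 (limma adjusted p = 0.268 and 0.319). The groups were apart for each of these 9 genes. As the genes were chosen by p on these same values, this separation is no further support.

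**Figure D4:**
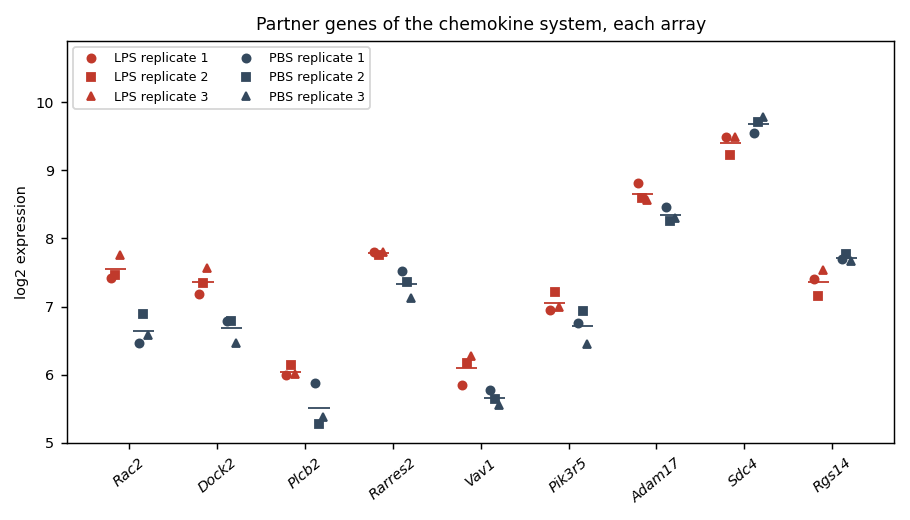
Log2 expression on each array of the 9 partner genes of the chemokine system with an unadjusted p under 0.05 in limma, for LPS (red, left of each pair) and PBS (blue), with a line at each group mean. All 3 LPS arrays lie above all 3 PBS arrays for Rac2, Dock2, Plcb2, Rarres2, Vav1, Pik3r5 and Adam17 and below them for Sdc4 and Rgs14.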

How the data were processed

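Whole brain RNA of 3 mice given LPS and 3 given PBS was read as the deposited log2 expression values, which the authors computed by RMA (background correction, normalization between arrays, probe summary). The methods name a GC-adjusted RMA in Partek and RMA 16 in GeneSpring, without saying which gave the table. The fold changes of Cldn5 and Cdh5 in these values, 1.97597 and 1.80082, equal those in the authors' Partek list. The authors' GeneSpring list gives another value for Cldn5, so that for these genes the values are those of the Partek processing. Normalizing between arrays can shrink a shift shared by most genes, and precision is limited by having 6 arrays. Nothing further was normalized or filtered. Of 35556 clusters, 21789 name 1 gene, 1621 several and 12146 none, and members were matched by symbol.

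LPS was compared with PBS in an unpaired two-sided test (limma 3.58.1 under R 4.3.3, functions lmFit and eBayes), calling clusters at a Benjamini-Hochberg adjusted p under 0.05 over the whole table. The procedure was tested on simulated data. The methods' t-test was run on the same values. Promoters were matched by symbol to RefSeq. Every member could be named, and array values were given for members with a p under 0.05, for those above background on all 6 arrays and for a list of well-known members. Partners were to be named at an adjusted p under 0.05. Alternatives were other settings of eBayes, array weights, quantile normalization, centring, leaving out the 40% dimmest clusters, testing clusters of 1 gene, a threshold of 0.1, a replicate block, other background limits, the mean of a gene's clusters and each array left out. Leaving out LPS replicates 1 and 2 together was chosen after the data were seen. Members and lists were chosen with earlier results of these data known.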

Additional observations from a re-analysis of the deposited data

How the results depend on the processing

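Members called higher numbered 2 (both ligands) and became 7 with array weights (5 ligands and 2 receptors, Ackr1 and Cxcr2), 1 after quantile normalization, centring or leaving out the 40% dimmest clusters (which removed Cxcl16), 1 without LPS replicates 1 and 2, 0 by the methods' t-test and 0 to 4 with 1 array left out, for members and ligands alike. Those called lower numbered 0, 3 with array weights (Ccl17, Ccl8 and Cxcl14) and 0 to 1 with 1 array left out. Array weights called 4751 clusters higher and 3572 lower, and leaving out LPS replicate 3, which gave the 4 and the 1, called 2640 and 1152, against 232 and 22 with all arrays. Partners called higher numbered 0, with 1 at a threshold of 0.1 or without the dimmest clusters (Rac2), 2 among clusters of 1 gene, 5 with array weights and 0 to 2 with 1 array left out, and those called lower numbered 3 with array weights and 0 to 1 with 1 array left out. Members above background were 19 on LPS arrays and 17 on control arrays, 10 and 9 with the 99th percentile, and 34 and 35 with the median. Replicate numbers gave no sign of a pairing of the mice (correlations of deviations 0.0867, -0.0538 and 0.0997), though such correlations cannot exclude one. With the replicate block 0 members and 0 ligands were called, beside 0.214% of all clusters higher (adjusted p = 0.0709 for Cxcl10 and 0.0953 for Cxcl16 from limma). The call of Cxcl10 also ended by the methods' t-test (adjusted p = 0.172), and that of Cxcl16 by the methods' t-test (0.110), quantile normalization (0.0740), centring (0.0893) and without LPS replicates 1 and 2 (0.0833).

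Some log2 fold changes, which lay between -0.19 (Ccl25) and 0.13 (Cxcl11) in the main fit, changed sign. With centring, which shifted the median of all clusters to -0.09, these were Ccl19 (-0.00458), Ccr7 (-0.0646), Cxcl1 (-0.0905), Cxcl12 (-0.0327), Cxcr3 (-0.0337) and Cxcr4 (-0.0652). With quantile normalization they were Ccr7 (-0.0223), Cxcl1 (-0.00711) and Cxcr4 (-0.0706), and with array weights Cxcl12 (-0.0951) and Cxcr4 (-0.132). Without LPS replicates 1 and 2 they were Ccl25 (0.0138), Ccl9 (-0.0297), Ccr7 (-0.176), Cx3cl1 (-0.0149), Cxcl1 (-0.0834), Cxcl11 (-0.385) and Cxcr3 (-0.0167). With 1 array left out the ranges spanned 0 for Ccl19 (-0.0388 to 0.217), Ccr7 (-0.163 to 0.151), Cxcl1 (-0.0397 to 0.0425), Cxcl11 (-0.0906 to 0.394), Cxcl12 (-0.0136 to 0.144) and Cxcr4 (-0.0960 to 0.141). The causes were not tested.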
